A study of Mus musculus with 6 samples.

Results

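The trypsinogen genes, the trypsin inhibitor gene Spink1 and the chymotrypsin C gene Ctrc were followed through 6 cultures of mouse pancreatic acini. The group comprised 8 of the 56953 genes counted, chosen by name. Of these, 6 encode trypsinogens (Prss1, Prss2, Prss3, Try4, Try5 and Try10) and Spink1 encodes the trypsin inhibitor of the acinar cell. Ctrc is the mouse gene for chymotrypsin C, which RefSeq lists as a transcribed pseudogene. A further 6 trypsinogen copies of the same chromosomal cluster were read beside them, because near-identical copies can exchange reads.

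Trypsinogens are the inactive precursors of trypsin and belong to the most abundant products of the acinar cell. They carry a short activation peptide that ends in a run of aspartates and a lysine. Enteropeptidase in the gut, or trypsin itself and cathepsin B inside the acinar cell, cuts after that lysine, and active trypsin then activates the other pancreatic zymogens. SPINK1 blocks trypsin that is activated too early, and chymotrypsin C degrades it. In the mouse the trypsinogen genes lie inside the T cell receptor beta locus.

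All cultures were sampled on day 3 of an ex vivo assay of acinar-to-ductal metaplasia (ADM), in which explanted acini lose acinar features and take on duct-like ones. WT acini came from wild-type mice, DD acini from mice homozygous for a ubiquitous Dkk3 knockout allele in which exon 2 is replaced, and DD + rDKK3 acini were DD acini given the recombinant DKK3 protein. DKK3 is a secreted glycoprotein. Each group had 2 libraries of bulk RNA-seq, and every culture stood in the same medium with 10% serum, 0.1 mg/ml trypsin inhibitor and 10 µg/ml dexamethasone. The labels name pancreatic acinar cells throughout. They give ages of 10 and 11 weeks for WT, 12 and 13 for DD and 14 and 15 for DD + rDKK3, a step of 1 week from library to library in the order of the groups. If these are the ages of the animals, age and group cannot be told apart, and whether they are was not tested. The allele is ubiquitous and takes away the secreted protein, whereas Dkk3b, an intracellular product that starts downstream of the replaced exon, is not targeted, and the cultures were not purified to acinar cells alone. The labels give the 2 libraries of a group different ages, but nothing in them states that the libraries came from separate animals. Without that, p-values measure only the spread between these samples, which may be technical.

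Library totals ran from 12018473 to 19750401 counts. The first principal component (42.3% of the variance) set DD 2 and DD + rDKK3 2 apart from the other 4 libraries, and the second (32.3%) set WT 1 apart. Fibroblast and stellate markers summed to 667 CPM (counts per 1000000, with library sizes scaled by TMM, the trimmed mean of M values) in DD 2 and 749 in DD + rDKK3 2, against 33.3 to 131 in the others, all 6 markers of the list being detected. WT 2, the library labelled female, held 141 CPM of 4 Y-linked genes beside 119 to 147 over all 6 libraries, together with 16 Xist counts where the others had 0. Dkk3 itself gave 10 and 1 counts for WT, 11 and 9 for DD and 5 and 5 for DD + rDKK3, and since a count summed over the gene does not separate the replaced exon from the rest, it does not check the genotype. The 7 acinar markers (Cpa1, Cel, Pnlip, Ptf1a, Rbpjl, Bhlha15 and Nr5a2) were all present, at a summed 15020 to 25510 CPM per library, beside 1335 to 2315 CPM for 6 ductal markers.

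The activation peptide is where trypsin is switched on, so its coding sequence was compared between the copies. Each line gives 45 bases of the reference coding sequence (GRCm39), 5′ to 3′ on the gene's strand, with the codons for the aspartates and the lysine in capitals. Cleavage follows the capitals. Except for Gm5771, all lie within exon 2 of the canonical transcript.

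Prss2 (chr6:41499753-41499797, plus strand): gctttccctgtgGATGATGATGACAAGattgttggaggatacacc
Try5 (chr6:41290396-41290440, minus strand): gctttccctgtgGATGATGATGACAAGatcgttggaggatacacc
Try10 (chr6:41332388-41332432, plus strand): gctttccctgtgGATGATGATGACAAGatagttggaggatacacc
Prss3 (chr6:41353855-41353899, minus strand): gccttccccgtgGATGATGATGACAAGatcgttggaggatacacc
2210010C04Rik (chr6:41011291-41011335, minus strand): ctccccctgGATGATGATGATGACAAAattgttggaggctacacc
Gm5771 (chr6:41369362-41371639, plus strand, spliced from exons 1 and 2): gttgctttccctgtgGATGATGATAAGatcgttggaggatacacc
Gm2663 (chr6:40974983-40975027, minus strand): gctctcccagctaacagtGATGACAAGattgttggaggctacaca

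The 45 bases of Try4 and of Prss1 were identical to those of Try5, and those of Gm10334 were identical to those of Prss3. Try4, Try5, Try10 and Prss1 each differed from Prss2 at 1 base and Prss3 at 3 bases, all outside the capitals. All 6 trypsinogen members thus share 1 activation site of 4 aspartates and a lysine, base for base. The copies outside the member list vary at that site. 2210010C04Rik encodes 5 aspartates, Gm5771 encodes 3, and Gm2663 and 1810009J06Rik encode 2. Gm5409 is annotated as an unprocessed pseudogene and was not aligned.

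The copies are close over their whole length. The cluster spans 560 kb of chromosome 6, from 1810009J06Rik to Prss2. Try4 (chr6:41279203-41282466, plus strand) and Try5 (chr6:41288167-41293775, minus strand) encode proteins that match at 241 of 246 aligned residues (97.97%). Prss3 (chr6:41350748-41354612, minus strand) and Gm10334 match at 98.78%, and Prss1 (chr6:41435866-41440720, plus strand) and Gm5771 at 98.37%. Prss2 (chr6:41498721-41502013, plus strand) stands further off, at 91.46% to Try4 and 89.02% to both Prss1 and Try10 (chr6:41331039-41334848, plus strand). 2210010C04Rik is the most distant of the abundant copies, with 74.8% to 78.05% identity to the 6 members. Coordinates are those of the deposited table (GRCm39), and identities were computed from the GENCODE M39 coding sequences of the same build.

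Reads were 50 bases long and came in pairs. The share of each transcript's 50-base windows that occur unchanged in another copy shows where a single read cannot name its gene. A pair with a mate in unshared sequence can still name it, so the share holds for single reads only. That share was 7.79% in Prss2, 39.6% in Try10, 52.6% in Prss1, 53.6% in Try5, 64.0% in Try4 and 66.1% in Prss3. Try4 and Try5 shared 345 windows with each other, and Prss3 shared 503 of its 773 with Gm10334. 2210010C04Rik, Spink1 and Ctrc shared none with the other copies or with each other. Values of Prss2, 2210010C04Rik and Spink1 therefore rest on sequence of their own, and those of the other trypsinogens are uncertain by copy. Prss1 nevertheless collected only 12.9 to 20.0 counts per 100000 counts of Try5, although 87 of the 756 windows of Try5 also occur in Prss1.

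**Figure D1:**
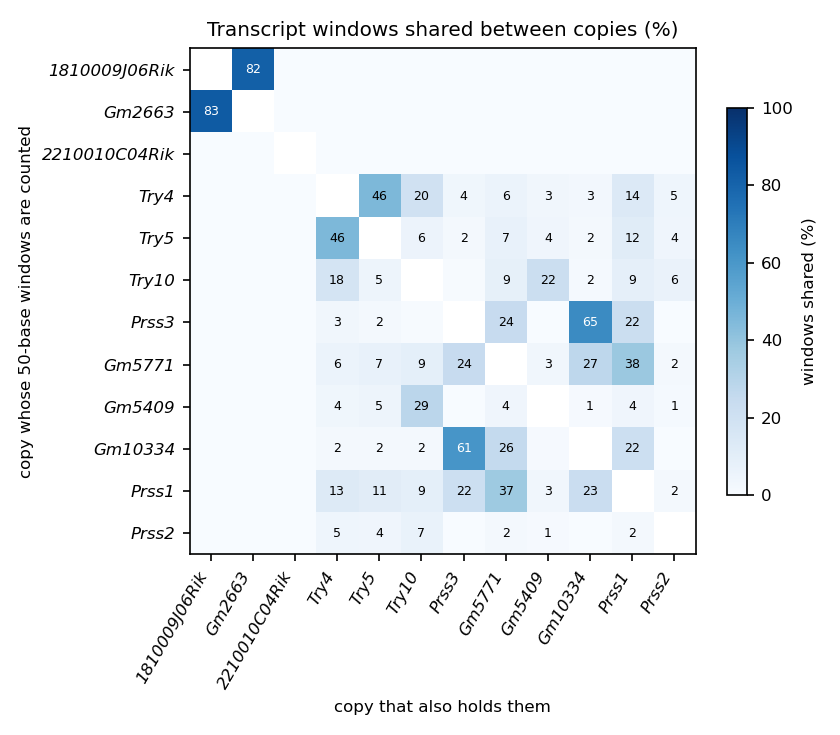
Percent of each trypsinogen copy's 50-base transcript windows (rows) that occur unchanged in each other copy (columns), in chromosomal order, with cells of at least 1% numbered. Try4 and Try5 share 46% of their windows with each other, Prss3 and Gm10334 share 61% to 65%, and 2210010C04Rik shares none.

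The trypsinogen copies stood at very different levels. Per kilobase of exon, Prss2 was highest (30940 CPM per kb, mean over 6 libraries, range 24560 to 40020), followed by Try5 (18700, range 12050 to 23420) and Try4 (4412, range 3180 to 7077), and these 3 ranges did not overlap. Prss3 (169, range 94.0 to 340) and Try10 (131, range 101 to 168) came next and overlapped, with Prss3 above Try10 in 5 of 6 libraries. Prss1 was lowest of the members, at 3.59 CPM per kb (range 1.68 to 4.92). Spink1 stood at 1517 CPM per kb (range 789 to 2630), between Try4 and Prss3 and overlapping 2210010C04Rik (1423, range 899 to 2424). Ctrc stood at 11.3 CPM per kb (range 6.28 to 20.5), overlapping Gm2663 and Gm5771, its neighbours in that order. When all counts were divided by the length of unshared windows instead, the order of Prss2 and Try5 turned, to 35690 and 48260 CPM per kb. Try4 stayed below both at 13040. This overstates copies with much shared sequence if reads from shared windows were counted to them. Try5 shares 53.6% of its windows and Prss2 7.79%. How such reads were placed is not given, so the turned order is not settled.

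**Figure D2:**
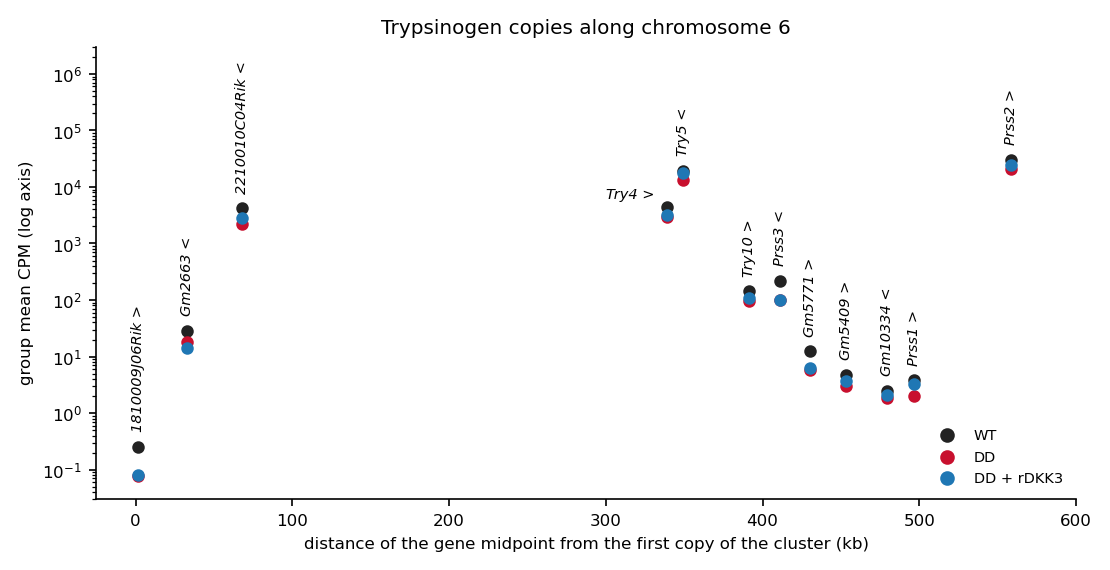
Group mean CPM (log axis) of the 12 trypsinogen copies against the distance of each gene's midpoint from the start of the first copy in kb, with arrowheads for the strand and colours for WT, DD and DD + rDKK3 (n = 2 each). Prss2, Try5, Try4 and 2210010C04Rik lie at the top in each group, and Gm5771, Gm5409, Gm10334 and Prss1 lie near the bottom although they sit between Prss3 and Prss2.

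Over all 12 copies, Prss2 took 49.4% to 55.3% of the trypsinogen counts of a library, Try5 30.0% to 37.5%, Try4 5.64% to 8.71% and 2210010C04Rik 4.47% to 7.95%. No other copy exceeded 0.428%. The 95% Wilson intervals of these shares reached at most 0.124 percentage points to either side. Like every interval here, they cover counting error only, since the reads carried no molecular identifiers. Within the 6 members, Prss2, Try5 and Try4 together made up 99.28% to 99.58% of the counts.

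The comparison of DD with WT asked whether the family differed between the Dkk3-null and the wild-type cultures. All 6 trypsinogens were lower in both DD libraries than in both WT libraries, by log2 fold changes of -0.52 to -1.11, whereas Spink1 and Ctrc were lower on average but overlapped between the groups. None of the 8 passed the test over all genes. With Benjamini-Hochberg adjustment, the quasi-likelihood test of edgeR called 6 of 14738 genes tested (0.0407%) and 0 of the 8 members, all of which had passed the filter on low counts. DESeq2 and limma-voom also called 0 of the 8. At an unadjusted p under 0.05, 4 members were lower (Prss1, Prss2, Prss3 and Try10) and 0 higher, where 3.99% of all genes were lower at that level. Groups did not overlap, with DD below WT, for 6 of the 8 members and for 19.7% of all genes. The members share sequence and a tissue of origin, so they are not 8 independent measurements. A bulk library cannot tell fewer acinar cells from less RNA per acinar cell.

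Prss2 had the most counts of the trypsinogens. It was at 32780 and 27950 CPM in WT cultures, 21680 and 20120 in DD cultures and 25910 and 23620 in those with rDKK3. The 3 groups stood in separate ranges, with DD lowest and DD + rDKK3 between DD and WT. The group means were 30360 ± 3415 CPM in WT (SD, n = 2), 20900 ± 1110 in DD and 24760 ± 1620 in DD + rDKK3. Its log2 fold change from WT to DD was -0.54 (SE 0.204, 95% interval -1.01 to -0.064, adjusted p 0.586), a level of 0.688 times that of WT.

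Try5 came second to Prss2 by counts, though above it when all counts were divided by the length of unshared windows. It was at 21220 and 17550 CPM in WT cultures, 16160 and 10920 in DD cultures and 19340 and 16430 in those with rDKK3. The DD libraries were below all others, and the WT and DD + rDKK3 libraries interleaved. The log2 fold change in DD was -0.52 (SE 0.255, adjusted p 0.586), -0.26 without DD 2 and -0.80 without DD 1.

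Try4, the near twin of Try5, was at 5690 and 3319 CPM in the WT cultures, 3100 and 2705 in the DD cultures and 3910 and 2556 in those with rDKK3. WT 1 stood high and the other 5 libraries lay close together. For DD against WT the fitted log2 value was -0.63 (SE 0.313, adjusted p 0.586), and it was -0.18 without WT 1 and -0.97 without WT 2. With libraries scaled by their totals alone, the WT and DD ranges of Try4 overlapped.

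Prss3 gave the largest difference among the members. It was at 280 and 153 CPM in the WT cultures, 109 and 92.1 in the DD cultures and 122 and 77.2 in those with rDKK3. Both WT libraries lay above all 4 Dkk3-null libraries, which interleaved. The log2 fold change in DD was -1.11 (SE 0.323, 95% interval -1.86 to -0.355, adjusted p 0.586), or 0.465 times the WT level, and it was -0.59 without WT 1. This is the member whose call depended on the procedure, since without the filter on low counts edgeR called it in DD against WT (log2 fold change -1.05, adjusted p 2.96e-05), in a setting that called 528 genes of 26506.

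Try10 was at 149 and 138 CPM in the WT cultures, 101 and 89.4 in the DD cultures and 118 and 99.0 in those with rDKK3. WT was above every Dkk3-null library. For DD against WT the fitted log2 value was -0.59 (SE 0.165, 95% interval -0.979 to -0.21), with the smallest unadjusted p of the members (0.00758) and the same adjusted p of 0.586.

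Prss1 was counted at 42 and 50 reads in the WT cultures, 54 and 24 in the DD cultures and 62 and 59 in those with rDKK3. In CPM these were 4.13 and 3.51, 2.56 and 1.41, and 3.28 and 3.17. The exact 95% Poisson interval of the lowest, DD 2, ran from 0.904 to 2.1 CPM, that of DD 1 from 1.92 to 3.33 and that of WT 2 from 2.61 to 4.63, so DD 1 and WT 2 were not told apart at this depth. The log2 fold change in DD was -0.93 (SE 0.356, adjusted p 0.586), -0.57 without DD 2 and -1.40 without DD 1.

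**Figure D3:**
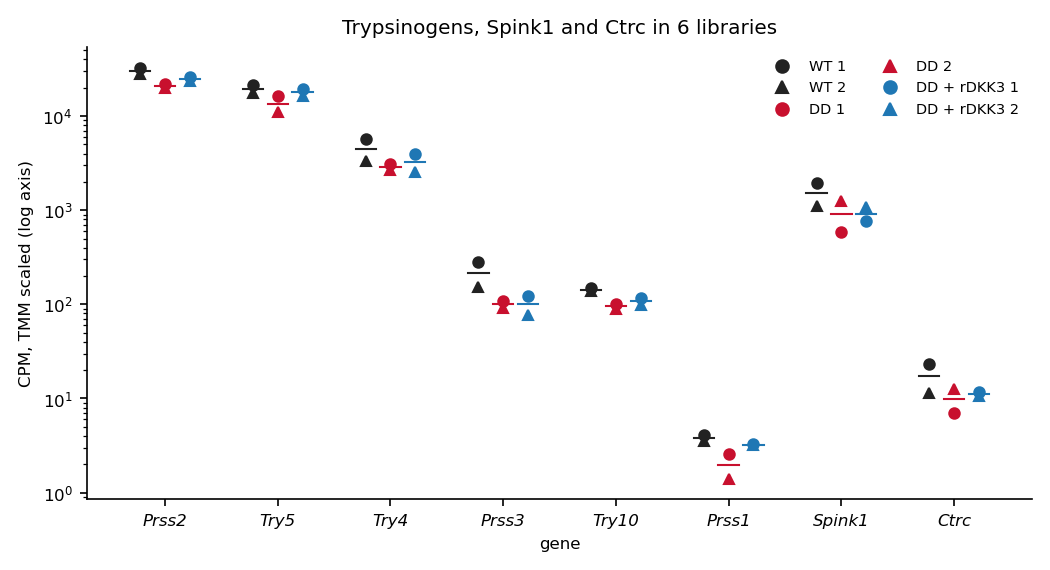
CPM (TMM scaled, log axis) of the 6 trypsinogens, Spink1 and Ctrc in each library, with circles for the first and triangles for the second library of a group and a bar for the group mean. The trypsinogen values of DD lie below those of WT without overlap, while for Spink1 and Ctrc DD 2 lies above WT 2.

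The copies outside the member list pointed the same way. Of the 6, 5 passed the filter, 0 were called and 2 were lower at an unadjusted p under 0.05, beside 3.99% of all genes. Their median log2 fold change in DD was -0.68, beside 0.0164 over all genes. 2210010C04Rik (named Prss3b in the later annotation, chr6:41007202-41012443, minus strand), whose reads are its own, was at 5193 and 3163 CPM in the WT cultures, 1926 and 2460 in the DD cultures and 3030 and 2510 in those with rDKK3. Its log2 fold change in DD was -0.93 (SE 0.28, adjusted p 0.586). Addition of rDKK3 gave 0.34 (SE 0.278). Gm5771 (Prss1l in the later annotation) was at 15.4 and 9.27 CPM in WT against 6.01 and 5.59 in DD (log2 fold change -1.08, SE 0.304, adjusted p 0.586). Gm5409 and Gm10334 stayed at 1.24 to 6.19 CPM in each library, with -0.65 (SE 0.355) and -0.43 (SE 0.434).

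Gm2663 was the exception in its spread. It was at 6.09 CPM in WT 1 and 51.4 in WT 2, while DD 1 and DD 2 gave 26.5 and 9.58 and the treated libraries 18.4 and 10.2, so the WT libraries enclosed all others and the log2 fold change of -0.68 had an SE of 0.834. It shares 83.3% of its windows with 1810009J06Rik, which had 1 to 3 counts per library and did not pass the filter.

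Added up, the 6 trypsinogens were at 60120 and 49120 CPM in the WT cultures, 41160 and 33920 in the DD cultures and 49400 and 42780 in those with rDKK3. As a share of all counts, without any scaling, this was 5.09% and 4.86%, 4.40% and 3.55%, and 5.0% and 4.47%, with Wilson 95% intervals of at most 0.0125 points to either side. Both DD libraries lay below the other 4 on either scale, and DD 1 (4.40%) and DD + rDKK3 2 (4.47%) nearly met in the share of counts. The log2 fold change of the sum was -0.54 in DD against WT (SE 0.226), 0.30 in DD + rDKK3 against DD (SE 0.226) and -0.24 in DD + rDKK3 against WT (SE 0.226), with no p taken over a sum of members. The last 2 depended on single libraries. The second was 0.16 without DD 2 and 0.18 without DD + rDKK3 1, and the third was -0.072 without WT 1. Between same-numbered libraries, the sum went from 41160 CPM in DD to 49400 in DD + rDKK3, and from 33920 to 42780. Whether libraries of the same number are matched was not tested. Without the 2 libraries rich in fibroblast markers, DD 2 and DD + rDKK3 2, the 3 values were -0.41, 0.27 and -0.14. Scaling by library size alone gave -0.32, 0.25 and -0.070, where that scaling put the median over all genes at 0.22 for the first of these and 0.18 for the last.

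The summed acinar markers were also lowest in a DD library. They stood at 25510 and 21210 CPM in the WT cultures, 20110 and 15020 in the DD cultures and 22470 and 17140 in those with rDKK3, with Cpa1, itself a digestive enzyme, making up 55.6% to 80.3% of them. In DD against WT 0 of the 7 were called and their fitted values differed in sign. The enzymes gave log2 fold changes of -0.25 for Cpa1 (SE 0.296), -0.70 for Cel (SE 0.339) and -0.93 for Pnlip (SE 0.459). Of the acinar transcription factors, Ptf1a gave 0.41 (SE 0.278), Bhlha15 0.55 (SE 0.441), Rbpjl 0.11 (SE 0.222) and Nr5a2 -0.056 (SE 0.242). Without WT 1, Ptf1a was at 0.052, Bhlha15 at -0.042 and Rbpjl at 0.0041, and with library size alone Nr5a2 was at 0.14. The sum thus describes enzyme transcripts and not those factors. Trypsinogen CPM per acinar marker CPM was 2.36 and 2.32 in the WT cultures, 2.05 and 2.26 in the DD cultures and 2.2 and 2.5 in those with rDKK3. On the log2 scale DD against WT gave -0.12 for this ratio (SD of the difference 0.102), against -0.54 for the sum itself. The ratio was computed after the values had been seen and sets trypsinogens against other enzymes. The part of acinar cell content in the lower trypsinogen values was not tested.

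Spink1 (a 4-exon gene on chromosome 18) encodes the inhibitor that binds trypsin inside the acinar cell. It was at 1938 and 1098 CPM in the WT cultures, 582 and 1254 in the DD cultures and 764 and 1072 in those with rDKK3. DD 2 lay above WT 2, so the groups overlapped, and DD 1 was the lowest of all. From WT to DD the log2 fold change was -0.73 (SE 0.409, 95% interval -1.68 to 0.225, adjusted p 0.59). It was -0.24 without WT 1, -0.25 without DD 1 and -1.38 without DD 2, so single libraries set its size.

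Spink1 was set against the 6 summed trypsinogens. Per 100 of their counts it came to 3.22 and 2.23 in WT cultures, 1.41 and 3.70 in DD cultures and 1.55 and 2.51 in those with rDKK3. Wilson intervals were at most 0.0485 to either side. Corrected for exon length, there were 23.6 to 61.4 transcripts of the 6 trypsinogens for each Spink1 transcript. 2210010C04Rik, which is not in this sum, had 4.68 to 8.64 counts per 100 counts of it. The DD libraries took both the lowest and the highest ratio of the 6. The log2 difference was -0.23 in DD against WT (SD of the difference 1.05), -0.22 in DD + rDKK3 against DD (1.10) and -0.45 in DD + rDKK3 against WT (0.618). Exact two-sided permutation p-values were 1, 1 and 0.667, in a design of 2 against 2 libraries that cannot go below 0.333. Each of the 3 differences was smaller than the spread between replicates.

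Ctrc (chr4:141565550-141573670, minus strand) encodes the protease that degrades trypsin and trypsinogen in other mammals. The deposited table lists it as protein coding, whereas in GENCODE M39 its canonical transcript is of the type protein_coding_LoF (loss of function) and RefSeq lists the mouse gene as a transcribed pseudogene. It was at 23.0 and 11.3 CPM in the WT cultures, 7.05 and 12.5 in the DD cultures and 11.8 and 10.6 in those with rDKK3, from 149 to 234 counts a library. WT 1 stood alone at the top and the other 5 libraries lay between 7.05 and 12.5. From WT to DD the log2 fold change was -0.81 (SE 0.377, 95% interval -1.69 to 0.067, adjusted p 0.586), -0.20 without WT 1, -1.24 without WT 2, -0.42 without DD 1 and -1.27 without DD 2. Of its 904 windows 237 also lie in Gm56298, a gene on the same strand that overlaps it and had 0 counts in every library. How reads in that overlap were counted was not tested, so these 0 counts do not show that Ctrc lost no reads there.

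Per 100 trypsinogen counts, Ctrc came to 0.0382 in WT 1 (Wilson 95% interval 0.0336 to 0.0435) and 0.0230 in WT 2 (0.0197 to 0.0269). DD 1 gave 0.0171 (0.0146 to 0.0201) and DD 2 gave 0.0367 (0.0321 to 0.0420), and the treated libraries lay together at 0.0240 (0.0210 to 0.0273) and 0.0248 (0.0215 to 0.0285). As for Spink1, DD held the lowest ratio of the 6 and a high one. The log2 differences were -0.24 in DD against WT, -0.043 in DD + rDKK3 against DD and -0.28 in DD + rDKK3 against WT, with SDs of 0.935, 0.779 and 0.519 and exact permutation p-values of 0.667, 1 and 1.

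**Figure D4:**
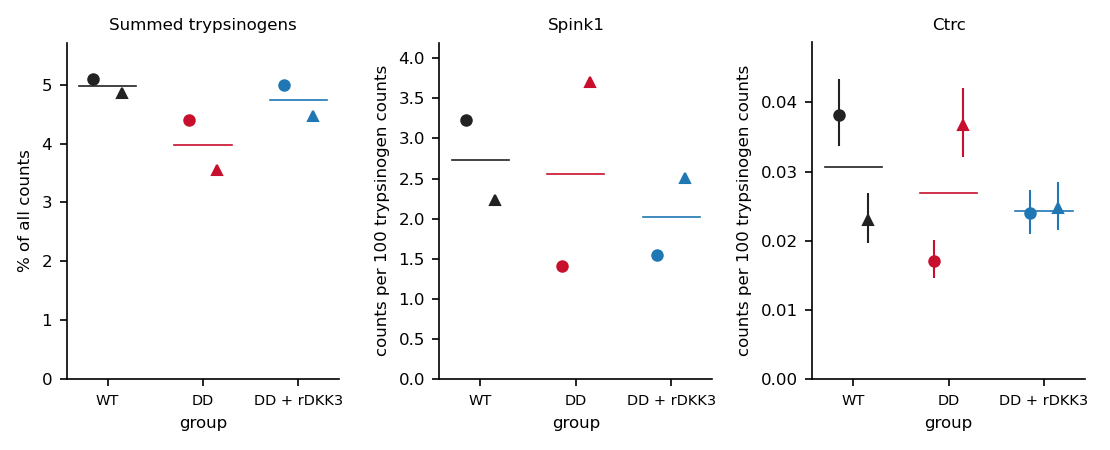
Summed counts of the 6 trypsinogens as a percent of all counts (left), and Spink1 (middle) and Ctrc (right) counts per 100 trypsinogen counts, by group, with circles for the first and triangles for the second library, a bar for the group mean and Wilson 95% intervals, which are narrower than the symbols except for Ctrc. The DD libraries are lowest in the left panel and lie furthest apart in the other two.

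Whether the recombinant protein moved these transcripts was asked by setting DD + rDKK3 against DD. Prss2, Try5 and Prss1 were higher in both treated libraries than in both DD libraries, by log2 fold changes of 0.24, 0.40 and 0.69, and the other 5 members overlapped. None passed the test. By edgeR 0 of 14738 genes (0%) were called and 292 had an unadjusted p under 0.05, while DESeq2 called 5 and limma-voom 0. Of the 8 members 0 were called by any of the 3 tools and 0 had an unadjusted p under 0.05. Groups did not overlap, with DD + rDKK3 above DD, for 3 of 8 members and for 15.1% of all genes.

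In this comparison Prss1 had the largest value, 0.69 (SE 0.351, 95% interval -0.126 to 1.51), which was 0.34 without DD 2 and 1.17 without DD 1. Try5 followed with 0.40 (SE 0.254, 95% interval -0.19 to 0.992), which was 0.15 without DD 2 and 0.69 without DD 1. Prss2 gave 0.24 (SE 0.204), Try10 0.19 (SE 0.165) and Try4 0.16 (SE 0.312), and without DD + rDKK3 1 these were 0.16, 0.045 and -0.20. Prss3 (-0.012, SE 0.319) and Spink1 (0.00026, SE 0.407) had fitted values near 0 with intervals of -0.755 to 0.73 and -0.946 to 0.946, so differences of 1.5-fold in either direction were not excluded at 2 libraries a group. Ctrc gave 0.21 (SE 0.375), which turned to -0.17 without DD 1. Both this comparison and the first use the DD libraries, so a low DD value lowers one and raises the other.

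The comparison of DD + rDKK3 with WT asked what difference remained with the protein present. All 8 members had values below 0, from -0.12 for Try5 to -1.12 for Prss3, and 0 were called by edgeR, where 7 of 14738 genes were called (0.0475%). At an unadjusted p under 0.05, Prss3 and Try10 were lower, beside 8.0% of all genes. Groups did not overlap, with DD + rDKK3 below WT, for Prss1, Prss2, Prss3, Try10 and Spink1, and for 27.1% of all genes. Prss3 gave -1.12 (SE 0.323, adjusted p 0.322) and was called by DESeq2 (log2 fold change -1.13, adjusted p 0.0355) but not by limma-voom, and without WT 1 it was -0.60. Try10 gave -0.40 (SE 0.165, adjusted p 0.322). Prss2 gave -0.29 (SE 0.204), Try4 -0.48 (SE 0.313), Spink1 -0.73 (SE 0.409) and Ctrc -0.60 (SE 0.375). Without WT 1 those 4 were -0.16, -0.017, -0.24 and 0.0073.

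**Figure D5:**
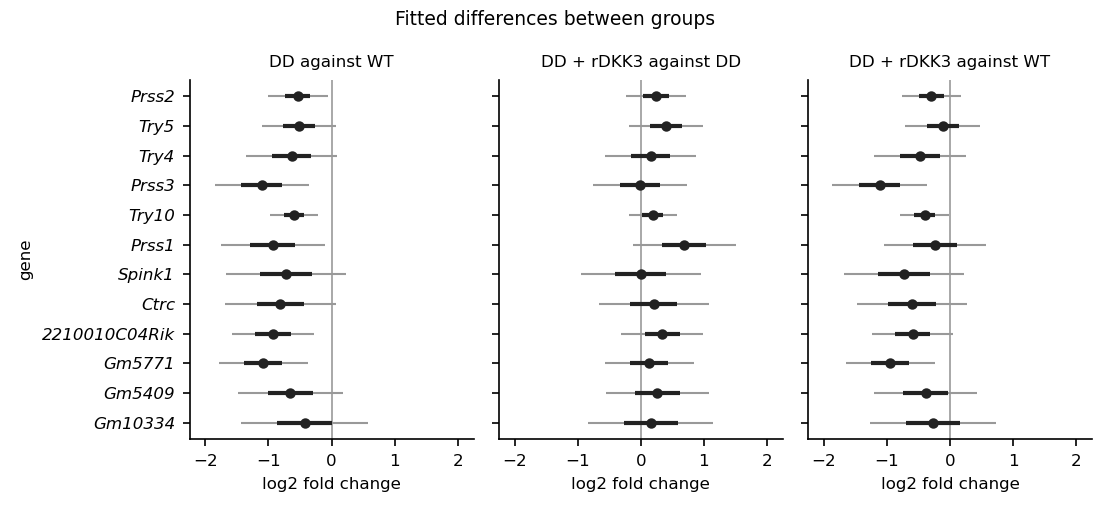
Fitted log2 fold changes of the 8 members and 4 further trypsinogen copies in the 3 comparisons, with thick bars for 1 SE and thin bars for the 95% interval. All points lie below 0 in DD against WT, and in DD + rDKK3 against DD every interval crosses 0.

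The zymogens that trypsin activates were described beside their activator. In DD against WT 0 of 11 were called and 5 were lower at an unadjusted p under 0.05, where 3.99% of all genes were lower at that level. All 11 had values below 0, and the median was -0.70, beside 0.0164 over all genes and -0.61 over the 6 trypsinogens. Carboxypeptidase B (Cpb1) was at 6111 and 5932 CPM in the WT cultures, 3538 and 3850 in the DD cultures and 5006 and 3781 in those with rDKK3 (log2 fold change -0.70 in DD, SE 0.21, adjusted p 0.586). The elastase Cela3b was at 14150 and 10640 CPM in WT against 6951 and 7658 in DD (-0.76, SE 0.239). In both the WT libraries were the highest of the 6. In DD + rDKK3 against DD, 0 were called, 0 had an unadjusted p under 0.05 and 10 of 11 had values above 0, with Cela2a at 0.39 (SE 0.32) and Cpb1 at 0.25 (SE 0.209) having the smallest p. In DD + rDKK3 against WT, 0 were called and 3 were lower at an unadjusted p under 0.05, beside 8.0% of all genes.

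The genes that activate or inhibit trypsin from outside the family were mostly below the filter, and none passed the test. Of 17 on that list, 7 passed the filter, 0 were called in any comparison and 0 had an unadjusted p under 0.05, and their median log2 fold change in DD was 0.086. Enteropeptidase (Tmprss15), made in the gut, was at 0 to 0.237 CPM. The 5 Serpina1 genes, which encode alpha-1-antitrypsins of the liver, had 0 counts in each library, which allows up to 3 counts, or 0.142 to 0.295 CPM. Cathepsin B (Ctsb), which can activate trypsinogen in the acinar cell, was at 803 to 1028 CPM, and cathepsin L (Ctsl), which inactivates it, at 2412 to 4323 CPM.

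By the smallest p on that list, Spint2, a membrane-bound Kunitz inhibitor of serine proteases, was at 656 and 569 CPM in the WT cultures, 478 and 512 in the DD cultures and 500 and 466 in those with rDKK3 (log2 fold change -0.31 in DD, SE 0.172, adjusted p 0.59). Serpini2, a serpin of the pancreas, was at 27.7 and 17.1, 6.82 and 19.6, and 13.2 and 13.5 CPM (-0.76, SE 0.45). F2rl1, a receptor that trypsin cleaves, gave 0.28 (SE 0.228). In DD + rDKK3 against DD the smallest p belonged to Ctsl (-0.43, SE 0.234) and Ctsd (-0.16, SE 0.167), both with an adjusted p of 1.00. None of these passed the test in either comparison.

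The promoters of the abundant and the scarce copies were compared, since the members had similar directions at very different levels. PTF1, the transcription factor complex of acinar enzyme genes, binds an E-box together with a TC-box. RefSeq promoter entries (GRCm38.p6) were matched for 8 trypsinogen copies, among them the members Prss1, Prss2, Prss3 and Try4. The 250 bases before the start are shown for the members highest and lowest per kilobase of exon. CACCTG (an E-box) and TTTCCC (the TC-box) are in capitals on either strand. CAGGTG and GGGAAA are the same motifs read from the other strand.

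Prss2 (chr6:41521526-41521775, plus strand): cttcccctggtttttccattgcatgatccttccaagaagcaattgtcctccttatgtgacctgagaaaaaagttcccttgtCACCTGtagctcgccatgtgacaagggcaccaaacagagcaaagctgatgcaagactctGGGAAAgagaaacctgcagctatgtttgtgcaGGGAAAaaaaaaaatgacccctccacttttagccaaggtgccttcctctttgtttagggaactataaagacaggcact
Prss1 (chr6:41458680-41458929, plus strand): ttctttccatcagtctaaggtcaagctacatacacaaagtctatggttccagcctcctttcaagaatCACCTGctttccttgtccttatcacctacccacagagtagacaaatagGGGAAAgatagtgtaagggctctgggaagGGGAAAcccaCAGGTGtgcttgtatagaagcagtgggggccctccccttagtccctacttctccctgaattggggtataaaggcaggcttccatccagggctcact

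CACCTG was present on at least 1 strand in all 8 copies, against 17.2% of 32851 promoters of the same length, and TTTCCC in Prss1, Prss2, Gm5771 and Gm2663, against 22.0%. Prss1 held 2 of each and Prss2 1 and 2, while the general E-box CANNTG, which includes CACCTG, occurred 2 times in Prss1 and 3 times in Prss2 and in 66.2% of all promoters. AAGGTCA, a core of the sites that NR5A2 binds, was found in Prss1 and Gm5771, against 4.08% of all promoters. A match of letters is a description and not a bound site, and the 8 copies are duplicates of one another.

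Across the 6 libraries, genes whose log2 CPM ran most like the summed trypsinogens included 4921516A02Rik (Pearson r 0.991), Rsph3a (0.988), Kcnh7 (0.981) and Eif2b2 (0.981), of 14730 genes compared. For Spink1 they were Mif4gd (0.995), Trim13 (0.994) and 3110070M22Rik (0.993), and for Ctrc they were Pdia2 (0.998), 9330133O14Rik (0.993) and Alkbh4 (0.992). With 6 points that share their libraries and scaling, 51, 108 and 89 genes reached an r above 0.95 with the sum, Spink1 and Ctrc, so these names are a description of the pattern only.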

How the data were processed

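RNA of 6 acinar cultures was sequenced by the authors as strand-specific paired reads (NEBNext Ultra II Directional, 50 bases) and aligned with STAR (2.7.9a) to GRCm39. Reads were counted over exons in union mode, ignoring secondary alignments, and the exon counts were then added up per gene. How reads matching several copies were placed is not given in the sources used here. The deposited values are raw counts. The 92 spike-in rows, with 0 counts, were left out.

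Genes were kept by filterByExpr (minimum count 10, total 15). Counts were scaled by TMM and fitted with edgeR (4.0.16) quasi-likelihood over all 6 libraries, 3 groups and 14738 genes. P-values are two-sided, with Benjamini-Hochberg adjustment over all of them, and a call needs an adjusted p under 0.05. The procedure was tested on simulated data. Alternatives used DESeq2 (1.42.0), limma (3.58.1), other scalings and filters, a replicate block and leaving out libraries. Ratios were tested by exact permutation (scipy 1.17.1).

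All 8 members, the listed copies and, per further list, the genes with the smallest p (3 in DD against WT, 2 in DD + rDKK3 against DD) are named, except 2 genes that are not reported here. Members and lists were chosen with earlier results of these data known.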

Additional observations from a re-analysis of the deposited data

How the results depend on the processing

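The number of members called was 0 in each comparison and changed in 3 settings, each time to 1, which was Prss3. Without the filter on low counts, Prss3 was called in DD against WT (log2 fold change -1.05) and in DD + rDKK3 against WT (-1.07, adjusted p 2.08e-05), while the genes called over the whole table went from 6, 0 and 7 to 528, 73 and 788. DESeq2 called it in DD + rDKK3 against WT (-1.13) and called 80, 5 and 74 genes in all. The cause of these differences was not tested. The third setting was a replicate block with the WT numbers swapped, chosen after seeing the data because of the negative correlations given next, and it called 1, 0 and 1 members and 296, 29 and 566 genes in the 3 comparisons.

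The labels do not state whether same-numbered libraries are paired. The titles give the DD and the DD + rDKK3 libraries the same numbers, and the main fit did not pair them. Deviations of same-numbered libraries from their group means correlated at -0.387 between WT and DD, -0.247 between WT and DD + rDKK3 and 0.65 between DD and DD + rDKK3. With the replicate number as a block, the summed trypsinogens gave -0.54, 0.30 and -0.24, 0 members were called, and 7, 0 and 5 genes were called in all.

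In DD against WT every member kept its direction in every fit. In DD + rDKK3 against DD, Spink1, at 0.00026, changed sign with DESeq2 size factors in edgeR (-0.0072), library size alone (-0.032), no filter (-0.0093), at least 1 CPM in every library (-0.010), DESeq2 (-0.0073) and only the 2 groups compared (-0.0066). Leaving out 1 library at a time gave -0.47 to 0.66 for Spink1, -0.39 to 0.27 for Prss3, -0.20 to 0.42 for Try4 and -0.17 to 0.67 for Ctrc in that comparison, and -0.24 to 0.047 for Try5 and -1.03 to 0.0073 for Ctrc in DD + rDKK3 against WT. Without DD 2 and DD + rDKK3 2 together, added after seeing the data, Prss3 gave 0.17 in DD + rDKK3 against DD, Try5 gave 0.0021 in DD + rDKK3 against WT, and 0 members were called in any comparison. Library size alone turned Try5 in DD + rDKK3 against WT to 0.057. The summed trypsinogens kept their direction in each comparison in all planned settings. Leaving out 1 library gave -0.67 to -0.37 in DD against WT. The same gave 0.16 to 0.42 in DD + rDKK3 against DD and -0.38 to -0.072 in DD + rDKK3 against WT. Relative to the acinar markers, the sum moved to -0.12 in DD against WT. Summing all 12 copies gave -0.57, and leaving out Prss2 gave -0.54. The ratio of Spink1 to the trypsinogens ran from -0.93 to 0.46 in DD against WT and from -0.91 to 0.48 in DD + rDKK3 against DD when 1 library was left out, and that of Ctrc from -0.79 to 0.31 and from -0.59 to 0.51, so neither ratio had a stable direction there.

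Depth limits Prss1 and Ctrc, with 24 to 62 and 149 to 234 counts a library. For the abundant copies the limit is the 2 libraries a group and the sequence that the copies share.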
